A study of Mus musculus with 9 samples.

Results

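Transcript levels of 41 genes of glutathione metabolism were followed in mouse liver: 24 glutathione transferases, 4 genes of glutathione synthesis and reduction, 4 glutathione peroxidases, 5 other enzymes and carriers commonly counted among NRF2 targets, 2 NADPH-producing enzymes, and Nfe2l2 and Keap1, which regulate them. They were picked by gene symbol from the 21873 genes of the RNA-seq table, and 40 of them were among the 14094 genes tested. Mgst2 had a mean below the 0.1 FPKM needed for a test. FPKM counts the fragments of a gene relative to its length and to the M fragments mapped. The mice were male C57BL/6 with no labelled genetic change, with 3 in each group and 1 library per mouse. The control group (NS) was injected with saline for 8 weeks, and the TAA group with thioacetamide, a compound that hepatocytes turn into toxic metabolites, for the same time. The recovery group had the same 8 weeks of thioacetamide, then 8 weeks without injections, so that these mice were older at collection and had no control group of their own age here.

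Glutathione is a tripeptide that takes up electrophiles and peroxides, and glutathione transferases join it to reactive compounds so that they can be exported from the cell. Cytosolic transferases fall into classes (alpha, mu, pi, theta, omega), to which a kappa class in mitochondria and peroxisomes and membrane-bound microsomal enzymes are added. The transcription factor NRF2, encoded by Nfe2l2, is held at a low level by KEAP1 and, when released, binds antioxidant response elements near many of these genes. Hepatocytes are rich in glutathione and in transferases.

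FPKM were divided by 1 factor per library (median of ratios over genes above 0 in all 9 libraries), which gives the scaled FPKM quoted below. The factors were 0.827 to 0.878 in control livers, 1.29 to 1.38 in TAA livers and 0.893 to 0.907 in recovery livers, a shift of 0.64 (log2) for TAA relative to control livers. Differences are log2 fold changes of (scaled FPKM + 0.1), with the standard error (SE) and the adjusted p of limma, and they understate the change of genes with low FPKM. A gene is said to have risen or fallen where the adjusted p was under 0.05 and the change was at least 2-fold. Estimated depth was 26.9 to 40.7 M fragments per library. The p-values measure the spread between these mice. TAA 3 was the only library with more than traces of skeletal muscle transcripts (5 genes, summed scaled FPKM of 30.4, with a highest sum of 0.0101 in recovery livers and 0 in control livers). Control mouse 1 was low in several macrophage and endothelial markers, with Clec4f at 13.8 against 32.3 and 36.2 in the other 2 controls, Csf1r at 8.04 against 17.1 in both, and Kdr at 12.5 against 21.2 and 22.6. Without this mouse, Gstm3 lost its call in recovery against control (2.53, adjusted p = 0.065), and 2 other members were called higher there in its place. Without TAA 3, the call of 1 named member changed, that of Gstt2 in recovery.

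Promoter windows are shown for 3 sets of members whose transcripts rose or fell. The nearby genes Gsta1 and Gm10639 have near-identical windows. Gstp1 and Gstp3, which have Gstp2 between them, moved in opposite directions in TAA livers (except with quantile normalization). G6pdx and Srxn1 hold matches to TGACNNNGC, described below. Each window is 300 bases on its gene's own strand around the annotated start of transcription, from RefSeq on the GRCm38.p6 assembly. Capitals mark matches to TGACNNNGC, the core of the antioxidant response element, and to TGANTCA, the AP-1 motif, searched on both strands, where N is any base. The 2 motifs overlap, and 1 stretch can match both.

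The Gsta1 window lies at chr9:78230419-78230718 on the plus strand and the Gm10639 window at chr9:78289678-78289977 on the plus strand.
Gsta1: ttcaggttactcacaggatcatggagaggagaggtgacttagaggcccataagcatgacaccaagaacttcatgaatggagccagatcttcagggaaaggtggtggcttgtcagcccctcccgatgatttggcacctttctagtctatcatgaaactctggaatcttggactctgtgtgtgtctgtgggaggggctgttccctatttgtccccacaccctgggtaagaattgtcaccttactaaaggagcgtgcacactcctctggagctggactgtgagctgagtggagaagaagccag
Gm10639: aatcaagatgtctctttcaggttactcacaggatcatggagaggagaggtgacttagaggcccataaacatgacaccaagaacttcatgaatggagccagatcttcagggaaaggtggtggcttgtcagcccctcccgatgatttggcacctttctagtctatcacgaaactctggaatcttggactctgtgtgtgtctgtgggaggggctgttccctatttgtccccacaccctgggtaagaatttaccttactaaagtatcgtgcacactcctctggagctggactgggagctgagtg
In a gapped alignment, 279 of the 300 bases were identical (93%), and neither window held a match to either motif.

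The Gstp1 window lies at chr19:4037863-4038162 on the minus strand and the Gstp3 window at chr19:4059398-4059697 on the minus strand.
Gstp1: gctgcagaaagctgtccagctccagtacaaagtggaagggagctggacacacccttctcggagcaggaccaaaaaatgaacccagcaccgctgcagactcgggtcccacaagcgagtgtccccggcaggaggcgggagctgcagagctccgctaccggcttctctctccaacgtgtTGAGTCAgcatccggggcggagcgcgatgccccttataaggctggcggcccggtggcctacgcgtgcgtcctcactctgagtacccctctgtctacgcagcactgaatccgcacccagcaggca
Gstp3: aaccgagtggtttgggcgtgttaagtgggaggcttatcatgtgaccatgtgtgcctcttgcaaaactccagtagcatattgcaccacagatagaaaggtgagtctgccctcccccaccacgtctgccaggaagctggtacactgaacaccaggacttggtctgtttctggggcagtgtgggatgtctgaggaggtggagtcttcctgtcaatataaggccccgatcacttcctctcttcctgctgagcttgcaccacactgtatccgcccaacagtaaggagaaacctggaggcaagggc
Gstp1 held 1 AP-1 match, starting 74 bases before the start of transcription, and the Gstp3 window held none of either motif. With the bases gc that follow it, the Gstp1 match differs from TGACNNNGC in 1 base, a G in place of the C.

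The G6pdx window lies at chrX:74428831-74429130 on the minus strand and the Srxn1 window at chr2:152105274-152105573 on the plus strand.
G6pdx: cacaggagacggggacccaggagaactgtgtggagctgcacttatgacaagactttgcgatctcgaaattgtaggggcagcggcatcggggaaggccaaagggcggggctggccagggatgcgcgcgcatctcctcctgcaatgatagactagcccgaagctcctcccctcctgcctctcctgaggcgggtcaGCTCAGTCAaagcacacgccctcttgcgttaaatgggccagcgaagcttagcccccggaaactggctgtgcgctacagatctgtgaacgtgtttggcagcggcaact
Srxn1: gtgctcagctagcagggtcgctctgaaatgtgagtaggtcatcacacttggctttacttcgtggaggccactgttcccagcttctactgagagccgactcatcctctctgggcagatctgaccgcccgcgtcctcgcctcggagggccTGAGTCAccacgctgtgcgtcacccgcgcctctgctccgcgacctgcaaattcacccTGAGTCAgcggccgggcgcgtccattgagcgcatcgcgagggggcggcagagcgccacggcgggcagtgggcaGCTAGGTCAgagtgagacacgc
G6pdx had 1 match to the antioxidant response element core on the opposite strand, 57 bases before the start. Srxn1 had 2 AP-1 matches, 102 and 45 bases before the start, and 1 match to the core just after it. The AP-1 match at 45 bases is followed by gc and likewise differs from the core in 1 base.

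RefSeq windows were found for 36 members (50 windows in all), and Gsta4, Gstt2, Gclc, Gsr and Hmox1 had no entry. The TGACNNNGC core was present for 10 members (Gsta3, Gstm5, Gstm7, Mgst1, Gclm, Txnrd1, Srxn1, G6pdx, Pgd and Nfe2l2), in 20% of the members' windows against 12.4% of all 32851 windows. Of these members, Gstm5, Srxn1, G6pdx and Pgd rose in TAA livers, Mgst1 fell, and the others did neither. Gsta1, Gm10639, Slc7a11 and Gstm3, which had the largest rises, held no core match. TGANTCA was present for 5 members (Gstm5, Gstp1, Gstp2, Mgst2 and Srxn1), in 10% of the members' windows against 7.81% of all. These are matches of letters within a short window and do not mark bound sites.

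In the TAA group, 18 of the 40 tested members rose against the control group and 4 fell. Among those that rose, Gm10639, Gpx2 and Slc7a11 passed the 0.1 FPKM filter although a group mean lay under it. Their TAA values were the highest, so a high level in that group helped them to be tested. Of all tested genes, 17% rose and 8.02% fell. By the adjusted p alone, 29 members differed, where 54.5% of all tested genes did. The median log2 fold change was 0.87 over the members and 0.02 over all tested genes. Gsta1, Gm10639, Slc7a11 and Gstm3 had the largest rises, and Gstk1, Gstt2, Mgst1 and Gstp1 fell, of which Gstk1 alone fell under each scaling tried. This split depended on the scaling: with FPKM as deposited, where the median over all genes was 0.63, it was 24 higher and 1 lower, with quantile normalization 23 and 2, and with TPM (median 0.83) 26 and 1. Over all 14094 tested genes, 4382 were higher and 421 lower with FPKM as deposited, 1534 and 1355 with quantile normalization, and 5687 and 343 with TPM.

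In recovery livers against TAA livers, 13 members fell and 6 rose, where 14.3% of all tested genes fell and 7.12% rose. Among those that fell, Gm10639, Gsto2, Gpx2 and Slc7a11 passed the filter although a group mean lay under it, with TAA livers the highest group. The adjusted p alone was under 0.05 for 30 members and for 50.5% of all genes. The median was -0.46 over the members and -0.01 over all genes. With FPKM as deposited (median over all genes -0.55) the split was 20 lower and 1 higher, which was also the split with quantile normalization, and with TPM (median -0.76) it was 24 and 0. Over all tested genes, 3728 were lower and 409 higher with FPKM as deposited, 1379 and 1198 with quantile normalization, and 5064 and 315 with TPM. This comparison shares its TAA libraries with the one above, so both values of a gene move together with those 3 mice.

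In recovery livers against control livers, 1 member, Gstm3, was higher by both criteria and none was lower, where 0.582% of all tested genes rose and 0.412% fell (limma). Nfe2l2 also passed the adjusted p, making 2 members against 2.7% of all genes. The median log2 fold change was 0.20 over the members and 0.01 over all genes. Under other settings the count of members higher was 0 to 2. Over all tested genes, 82 were higher here, and 74 to 106 under the other scalings.

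**Figure D1:**
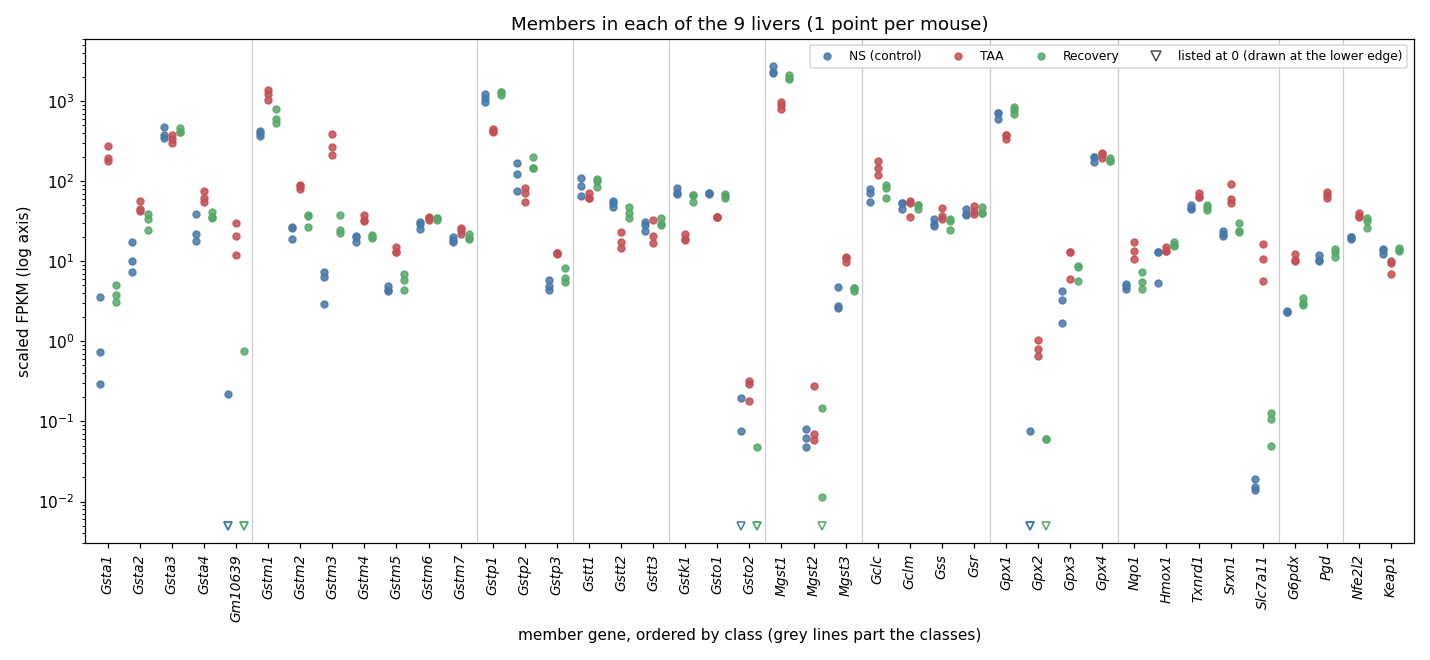
Scaled FPKM on a log axis of the 41 members in each of the 9 livers, with 1 point per mouse and genes grouped by class. Gsta1, Gm10639, Gstm3 and Slc7a11 stand apart in TAA livers, where Mgst1 and Gstp1 lie below both other groups.

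The alpha class, whose enzymes also reduce lipid hydroperoxides, had 4 of 5 members higher in TAA livers. Gsta1 (ENSMUSG00000074183, chromosome 9, 78230656 to 78242684, mm10) had scaled FPKM of 3.55, 0.732 and 0.296 in control livers, 179, 276 and 193 in TAA livers and 3.1, 3.77 and 5.13 in recovery livers. The TAA libraries were far above all others, and control mouse 1 lay within the recovery range. Gsta1 rose by 7.64 log2 units (SE 0.71, adjusted p = 1.04e-04) in TAA livers and fell by 5.72 log2 units (SE 0.22, adjusted p = 4.62e-06) in recovery livers against the TAA group. Its difference of 1.92 (SE 0.76) between the recovery and control groups had an adjusted p of 0.199.

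Gm10639, a predicted alpha-class gene near Gsta1, was listed at 0 in 2 control livers and had 0.221 in the third, then 12, 29.9 and 20.8 in TAA livers and 0, 0 and 0.76 in recovery livers. It rose by 7.06 log2 units (SE 0.51, adjusted p = 3.65e-05) and fell by 6.59 log2 units in recovery (SE 0.80, adjusted p = 3.86e-04). Reads of Gsta1 and Gm10639 may be split between copies. Of the 100-base windows of Gsta1's annotated transcripts, 80.6% also occur in Gm3776, Gsta2 or Gm10639, as do 31.9% of those of Gm10639 and 28.4% of those of Gsta2 in the other 3 genes. Taken singly, Gsta1 shares 64.7% of its windows with Gm3776, 24.3% with Gsta2 and 12.6% with Gm10639. Gm3776, which is not a member, had 1.14, 0 and 0.13 in control livers, 105, 180 and 130 in TAA livers and 0.712, 2.14 and 3.33 in recovery livers.

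Gsta2 had 17.4, 10.2 and 7.34 in control livers, 42.2, 57.4 and 45.4 in TAA livers and 33.5, 39.1 and 24.7 in recovery livers. It rose by 2.12 log2 units (SE 0.29, adjusted p = 6.66e-04) in TAA livers. The 3 recovery values lay between the other groups without overlap, with a log2 difference of -0.59 from the TAA group (SE 0.18, adjusted p = 0.0301) and of 1.54 from the control group (SE 0.32, adjusted p = 0.0627). Gsta4, whose enzyme conjugates aldehydes of lipid peroxidation, had 39.1, 22.2 and 18.1, then 55.3, 75.5 and 62, then 34.5, 35.4 and 41.8. It rose by 1.34 log2 units in TAA livers (SE 0.27, adjusted p = 0.00432), and in recovery its log2 difference from the TAA group was -0.78 (SE 0.13, adjusted p = 0.00211).

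Gsta3, the alpha-class gene with the highest control level, did not pass the test in TAA livers. Its scaled FPKM were 471, 374 and 346 in control livers, 379, 336 and 300 in TAA livers and 418, 409 and 456 in recovery livers, with overlap between the control group and both others. The log2 fold change in TAA livers was -0.22 (SE 0.15, adjusted p = 0.239), but it was 0.42 with FPKM as deposited, 1.04 with quantile normalization and 0.61 with TPM. The ratio of Gsta1 to Gsta3 in the deposited FPKM of a liver is free of any factor per library, though not of quantile normalization. It was 0.000857 to 0.00754 in control livers, 0.471 to 0.822 in TAA livers and 0.00741 to 0.0112 in recovery livers.

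The 7 mu-class genes lie in 1 stretch of chromosome 3, and 4 of them rose in TAA livers. Gstm1, the most abundant, had 404, 429 and 368 in control livers, 1032, 1373 and 1215 in TAA livers and 535, 606 and 789 in recovery livers. All TAA libraries were above all recovery libraries, which were above all controls. Gstm1 rose by 1.59 log2 units (SE 0.14, adjusted p = 8.08e-05), and the recovery group differed from the TAA group by -0.92 (SE 0.18, adjusted p = 0.00372) and from the control group by 0.67 (SE 0.16, adjusted p = 0.075). Without TAA mouse 1 or recovery mouse 3, the first of these passed the 2-fold criterion (-1.03 and -1.07), as it did with FPKM as deposited (-1.48), quantile normalization (-2.18) and TPM (-1.68).

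Gstm3 (ENSMUSG00000004038, chromosome 3, 107963696 to 107969283) had 6.42, 7.43 and 2.92 in control livers, 212, 393 and 269 in TAA livers and 22.4, 24.6 and 37.4 in recovery livers. The 3 groups were well apart. Gstm3 rose by 5.74 log2 units in TAA livers (SE 0.36, adjusted p = 2.06e-05) and fell by 3.36 log2 units in recovery (SE 0.26, adjusted p = 4.82e-05). It remained above the control group by 2.38 (SE 0.37, adjusted p = 0.0334), a 5.2-fold difference. That call was lost on leaving out any 1 of the 6 mice compared, with adjusted p from 0.0571 to 0.116 and log2 fold changes from 1.97 to 2.63. In 13.8% of its 100-base transcript windows the sequence is shared, with Gm8834, Gstm2-ps1, Gstm6 and, for 1.65%, Gstm1.

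Gstm2 had 26.2, 26.8 and 18.9 in control livers, 80.4, 88.7 and 87.4 in TAA livers and 26.9, 36.8 and 38 in recovery livers. It rose by 1.85 log2 units (SE 0.14, adjusted p = 4.52e-05) and fell by 1.35 log2 units in recovery (SE 0.14, adjusted p = 1.76e-04). Gstm5 had 4.86, 4.26 and 4.41, then 15.3, 12.9 and 13.2, then 4.35, 5.85 and 6.97. Its TAA values were the 3 highest, with a rise of 1.59 (SE 0.11, adjusted p = 2.77e-05) and a fall of 1.28 in recovery (SE 0.17, adjusted p = 6.21e-04). Gstm4 and Gstm7 passed the adjusted p in TAA livers with smaller differences of 0.82 and 0.39 (adjusted p = 5.90e-04 and 0.0144). Gstm6, at 25.4 to 31.3 in control livers and 32.9 to 36.1 in TAA livers, did not (log2 fold change 0.27, adjusted p = 0.0503).

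In the pi class, Gstp1 and Gstp3, with Gstp2 between them on chromosome 19, moved in opposite directions, except with quantile normalization, where Gstp1 did not fall. Gstp1 (ENSMUSG00000060803, 4035407 to 4037985), among the most abundant transferase transcripts of mouse liver, had 968, 1220 and 1099 in control livers, 410, 451 and 428 in TAA livers and 1300, 1199 and 1284 in recovery livers. All TAA values lay below all others. Gstp1 fell by 1.35 log2 units (SE 0.12, adjusted p = 9.82e-05) and rose by 1.55 log2 units in recovery (SE 0.11, adjusted p = 2.80e-05). The fall came to -0.71 with FPKM as deposited and -0.52 with TPM, both under 2-fold, and with quantile normalization the value was 0.22 (adjusted p = 0.141). The rise in recovery was likewise under 2-fold there, at 0.99, 0.79 and 0.14 in the same order.

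Gstp3 (ENSMUSG00000058216, 4057477 to 4059569) had 4.9, 5.84 and 4.33 in control livers, 12.6, 12.6 and 12.5 in TAA livers and 8.24, 6.2 and 5.49 in recovery livers. It rose by 1.32 log2 units (SE 0.12, adjusted p = 1.07e-04), and the recovery group differed from the TAA group by -0.93 (SE 0.15, adjusted p = 0.00143). The ratio of Gstp3 to Gstp1 within a liver, in which a factor per library cancels, was 0.00394 to 0.00506 in control livers, 0.028 to 0.0307 in TAA livers and 0.00428 to 0.00633 in recovery livers. Gstp2 had 76.6, 171 and 124, then 71.6, 83.1 and 54.5, then 145, 147 and 199. It did not pass the test in TAA livers (-0.77, SE 0.29, adjusted p = 0.0537) and rose in recovery by 1.23 log2 units (SE 0.18, adjusted p = 9.93e-04). With other scalings the rise of Gstp2 was under 2-fold, at 0.67 with FPKM as deposited, 0.59 with quantile normalization and 0.47 with TPM. Gstp1 and Gstp2 have transcript windows in common, 25.1% of those of Gstp1 and 41.6% of those of Gstp2, and reads can be split between them, while Gstp3 shares none.

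Among the theta, kappa and omega classes, Gstk1, the mitochondrial and peroxisomal transferase, fell in TAA livers under each scaling tried. Its values were 82.5, 69.1 and 72.2 in control livers, 21.9, 18.8 and 18.5 in TAA livers and 55.2, 67.4 and 67.8 in recovery livers. The TAA values were the 3 lowest. The fall was -1.91 (SE 0.11, adjusted p = 1.26e-05), against -1.28 with FPKM as deposited, -1.50 with quantile normalization and -1.09 with TPM. In recovery Gstk1 rose by 1.68 log2 units (SE 0.12, adjusted p = 2.93e-05), a value that came to 0.92 with TPM.

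Gstt2 had 47.1, 56 and 53.3 in control livers, 17.5, 23.5 and 14.7 in TAA livers and 47.8, 40 and 34.4 in recovery livers. It fell by 1.51 log2 units (SE 0.17, adjusted p = 2.61e-04) and rose by 1.14 log2 units in recovery (SE 0.19, adjusted p = 0.00162), and both values were under 2-fold with FPKM as deposited (-0.87 and 0.58). Without TAA mouse 3, the difference in recovery was 0.99 and so under 2-fold. Gstt1, the theta gene with the highest control level, had 110, 86.5 and 66.3, then 61.8, 70.5 and 61.2, then 85.5, 106 and 101. Its control and TAA values overlapped, with a log2 fold change of -0.41 (SE 0.18, adjusted p = 0.0827) that turned to 0.23 with FPKM as deposited, 0.20 with quantile normalization and 0.42 with TPM. Gstt3 did not pass the test in any comparison and ranged from 16.7 to 34.7 over the 9 livers.

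Gsto1, an omega transferase that also reduces dehydroascorbate, was near 2-fold lower in TAA livers at 35.4 to 36.1, against 69.6 to 72.1 in control livers (-0.99, SE 0.07, adjusted p = 3.64e-05). Gsto2 was close to the limit of detection. It had 0.196, 0 and 0.076 in control livers, 0.321, 0.293 and 0.181 in TAA livers and 0, 0.0482 and 0 in recovery livers. It fell in recovery by 1.66 log2 units (SE 0.30, adjusted p = 0.00246), but by 0.31 where 1 was added to each FPKM in place of 0.1 (-0.31).

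Mgst1, the membrane-bound transferase of the endoplasmic reticulum and outer mitochondrial membrane, had the highest control level of all members. It had 2266, 2749 and 2342 in control livers, 980, 902 and 789 in TAA livers and 1973, 1898 and 2117 in recovery livers. The TAA values were the lowest, and all recovery values were below all controls. Mgst1 fell by 1.46 log2 units (SE 0.15, adjusted p = 1.54e-04) and rose by 1.17 log2 units in recovery (SE 0.13, adjusted p = 2.86e-04), but with quantile normalization these values were -0.08 and -0.02, and with FPKM as deposited -0.82 and 0.61. Mgst3 had 4.71, 2.61 and 2.8, then 9.8, 11.2 and 11.1, then 4.66, 4.27 and 4.66. It rose by 1.68 log2 units (SE 0.22, adjusted p = 4.98e-04) and fell by 1.22 log2 units in recovery (SE 0.10, adjusted p = 6.88e-05). Mgst2, which was not tested, was between 0 and 0.274.

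The make-up of the transferase transcripts can be read from the deposited FPKM, with no factor per library, as the share of each class in the summed FPKM of the 24 transferases of a liver. The mu class made up 10.2% ± 0.616 (SD, n = 3) in control livers, 42.6% ± 3.74 in TAA livers and 15.6% ± 1.99 in recovery livers. The microsomal share was 49.8% ± 1.31, 22.9% ± 3.11 and 39.9% ± 0.621 in the same order, and the pi share 24.8% ± 2.14, 13% ± 0.445 and 28.5% ± 1.14. Mgst1 was the leading transcript in the control and recovery groups, and Gstm1 led in TAA livers, with 8.12% ± 0.408 of the pool in control livers, 30.5% ± 2.55 in TAA livers and 12.8% ± 1.85 in recovery livers.

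The alpha class took 8.92% ± 2.07, 17.4% ± 0.666 and 10% ± 0.164 of the pool. Within it, Gsta3 held 8.1% ± 1.67, 8.62% ± 1.34 and 8.53% ± 0.0537 of all transferase FPKM, while Gsta1 went from 0.0318% ± 0.038 in control livers to 5.42% ± 0.789 in TAA livers and 0.0791% ± 0.0158 in recovery livers. The theta share was 2.68% to 3.4% as a group mean, and the kappa and omega share was 2.97% ± 0.328, 1.42% ± 0.153 and 2.59% ± 0.187. For all 6 classes, the 3 TAA livers lay outside the range of the other 6. The shares are parts of the same sum. A rise of the mu class therefore lowers other shares even where the FPKM of those classes do not change, and the 6 are not separate differences. The shares are given as a description, with no test. The summed scaled FPKM of the 24 genes was 4930 ± 414, 3954 ± 372 and 5018 ± 314, and the same genes held 1.07% to 1.2%, 1.43% to 1.76% and 1.13% to 1.26% of all FPKM in a library.

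**Figure D2:**
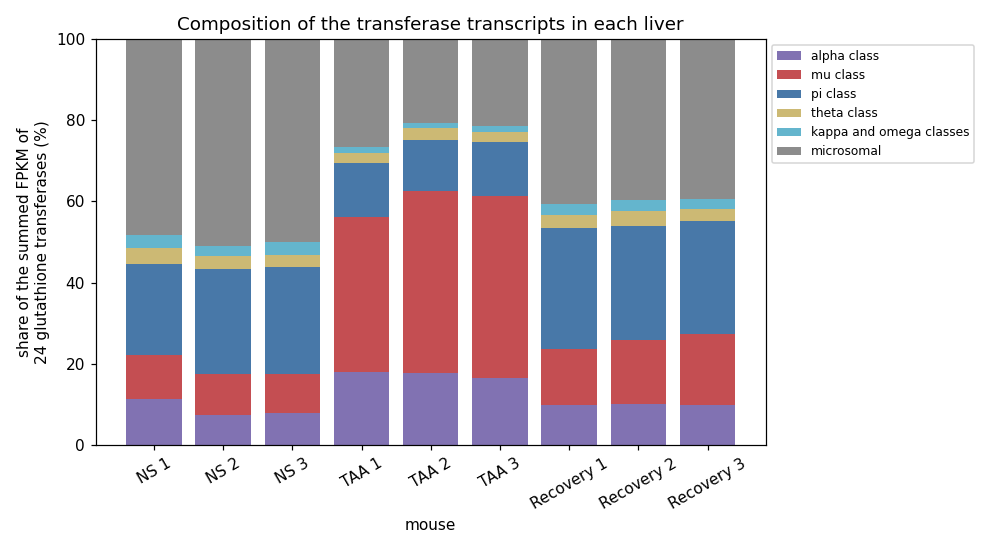
Stacked bars of the share of each transferase class in the summed FPKM of 24 transferases, in percent, for each of the 9 mice. The mu share is 38.3% to 44.9% in TAA livers, 9.7% to 10.9% in control livers and 13.6% to 17.6% in recovery livers.

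In glutathione synthesis, the catalytic subunit of glutamate-cysteine ligase, the rate-limiting enzyme, rose, and the modifier subunit did not pass the test. Gclc, the catalytic subunit, had 71.5, 79.7 and 55.3 in control livers, 119, 180 and 148 in TAA livers and 88.9, 61.5 and 82.7 in recovery livers. It rose by 1.11 log2 units (SE 0.19, adjusted p = 0.0018), and the value was 0.96, under 2-fold, without control mouse 3 or without TAA mouse 2. In recovery the log2 difference from the TAA group was -0.93 (SE 0.19, adjusted p = 0.00424), which passed 2-fold without TAA mouse 1 (-1.09) or recovery mouse 1 (-1.04), and with FPKM as deposited (-1.50), quantile normalization (-1.70) and TPM (-1.70). Gclm, the modifier subunit, did not pass the test, with -0.07 (SE 0.18, adjusted p = 0.77) in TAA livers and values of 36.1 to 57.2 over all 9 livers.

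The ratio of Gclc to Gclm within a liver was 1.23 to 1.5 in control livers, 2.08, 4.99 and 2.77 in TAA livers and 1.37 to 1.77 in recovery livers. Gss, which completes the tripeptide, and Gsr, which returns oxidized glutathione to its reduced form, passed the test in none of the comparisons. Their log2 fold changes in TAA livers were 0.36 (adjusted p = 0.0557) and 0.10 (adjusted p = 0.486).

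Of the peroxidases, Gpx2 and Gpx3 rose in TAA livers. Gpx3, the secreted plasma enzyme, had 1.72, 3.29 and 4.26 in control livers, 12.9, 6.02 and 13.2 in TAA livers and 5.75, 8.41 and 8.65 in recovery livers. It rose by 1.77 log2 units (SE 0.39, adjusted p = 0.00688). The recovery values overlapped those of the TAA group (-0.43, SE 0.31, adjusted p = 0.283) and were all above the controls (1.34, SE 0.34, adjusted p = 0.088). Gpx2, an enzyme best known from gut epithelium, was low throughout, at 0.0756, 0 and 0 in control livers, 1.03, 0.654 and 0.814 in TAA livers and 0.0601, 0 and 0.0606 in recovery livers. It rose by 2.93 log2 units (SE 0.30, adjusted p = 1.71e-04) and fell by 2.75 log2 units in recovery (SE 0.28, adjusted p = 1.69e-04). With 1 in place of 0.1 added to each FPKM, these were 0.83 and -0.81, under 2-fold.

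Gpx1, the main cytosolic peroxidase, had 720, 605 and 717 in control livers, 334, 373 and 377 in TAA livers and 781, 697 and 838 in recovery livers. The TAA values were the lowest, but the log2 fold change of -0.91 (SE 0.12, adjusted p = 4.76e-04) was under 2-fold, and it was -0.27 with FPKM as deposited and 0.43 with quantile normalization. In recovery Gpx1 rose by 1.09 log2 units (SE 0.11, adjusted p = 1.95e-04), a value that was 0.53 with FPKM as deposited and -0.12 with quantile normalization. Gpx4, which reduces phospholipid hydroperoxides, ranged from 175 to 224 and passed the test in no comparison. It shares 25.2% of its transcript windows with other annotated copies.

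Of the other NRF2 target genes, Slc7a11 had the largest rise. It encodes the light chain of the cystine-glutamate exchanger, which brings in the cystine needed for glutathione. Slc7a11 (ENSMUSG00000027737, chromosome 3, 49892526 to 50443614) had 0.0189, 0.014 and 0.015 in control livers, 5.68, 16.3 and 10.8 in TAA livers and 0.0487, 0.127 and 0.106 in recovery livers. The TAA group was far above both others. Slc7a11 rose by 6.45 log2 units (SE 0.35, adjusted p = 1.21e-05) and fell by 5.73 log2 units (SE 0.37, adjusted p = 2.27e-05), and the difference of 0.72 between recovery and control (SE 0.21) had an adjusted p of 0.113. The ratio of Slc7a11 to Slc3a2, its heavy-chain partner, was 0.000779 to 0.00138 in control livers, 0.281 to 0.673 in TAA livers and 0.00205 to 0.00649 in recovery livers.

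Nqo1, a quinone reductase widely used as a readout of NRF2, had 5.17, 4.96 and 4.45, then 10.8, 17.6 and 13.5, then 4.51, 5.49 and 7.41 in control, TAA and recovery livers in turn. It rose by 1.48 log2 units (SE 0.18, adjusted p = 3.50e-04) and fell by 1.25 log2 units in recovery (SE 0.22, adjusted p = 0.00248). Srxn1, which repairs overoxidized peroxiredoxins, had 20.5, 23.8 and 21.9, then 53.9, 91.7 and 59.4, then 23.8, 23 and 29.7. It rose by 1.59 log2 units (SE 0.19, adjusted p = 3.67e-04) and fell by 1.39 log2 units (SE 0.20, adjusted p = 9.18e-04).

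Txnrd1, the cytosolic thioredoxin reductase, had 46.7, 49.8 and 44.5, then 63.9, 71.6 and 63.1, then 49.9, 43.5 and 47.8. Its TAA values were the 3 highest, with a log2 fold change of 0.49 (SE 0.09, adjusted p = 0.00257) and of -0.49 in recovery (SE 0.09, adjusted p = 0.00332), both under 2-fold. Under the other scalings both passed 2-fold, at 1.13 and -1.05 with FPKM as deposited, 1.10 and -1.03 with quantile normalization and 1.32 and -1.26 with TPM. Hmox1, which breaks down haem, did not pass the test in TAA livers (0.53, SE 0.32, adjusted p = 0.202). Its control values were 5.33, 13 and 13.2 and its TAA values 13.6 to 15.1, so that control mouse 1 lay well below the other 2 and the log2 fold change was 0.10 without it. That mouse was also low in the macrophage and endothelial markers given above, whose part in this value was not tested.

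Both NADPH-producing enzymes of the pentose phosphate pathway rose in TAA livers with little spread between mice. G6pdx, the first enzyme, had 2.38, 2.35 and 2.36 in control livers, 10.5, 12.4 and 10 in TAA livers and 2.82, 3 and 3.47 in recovery livers. It rose by 2.16 log2 units (SE 0.11, adjusted p = 1.07e-05) and fell by 1.79 log2 units (SE 0.13, adjusted p = 3.41e-05). Pgd had 10.3, 11.9 and 10.2, then 61.7, 73 and 68, then 11.4, 12.9 and 14.3. It rose by 2.63 log2 units (SE 0.10, adjusted p = 3.62e-06) and fell by 2.39 log2 units (SE 0.11, adjusted p = 7.56e-06). All recovery values of G6pdx were above all controls (0.37, SE 0.12, adjusted p = 0.142), while those of Pgd overlapped them.

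**Figure D3:**
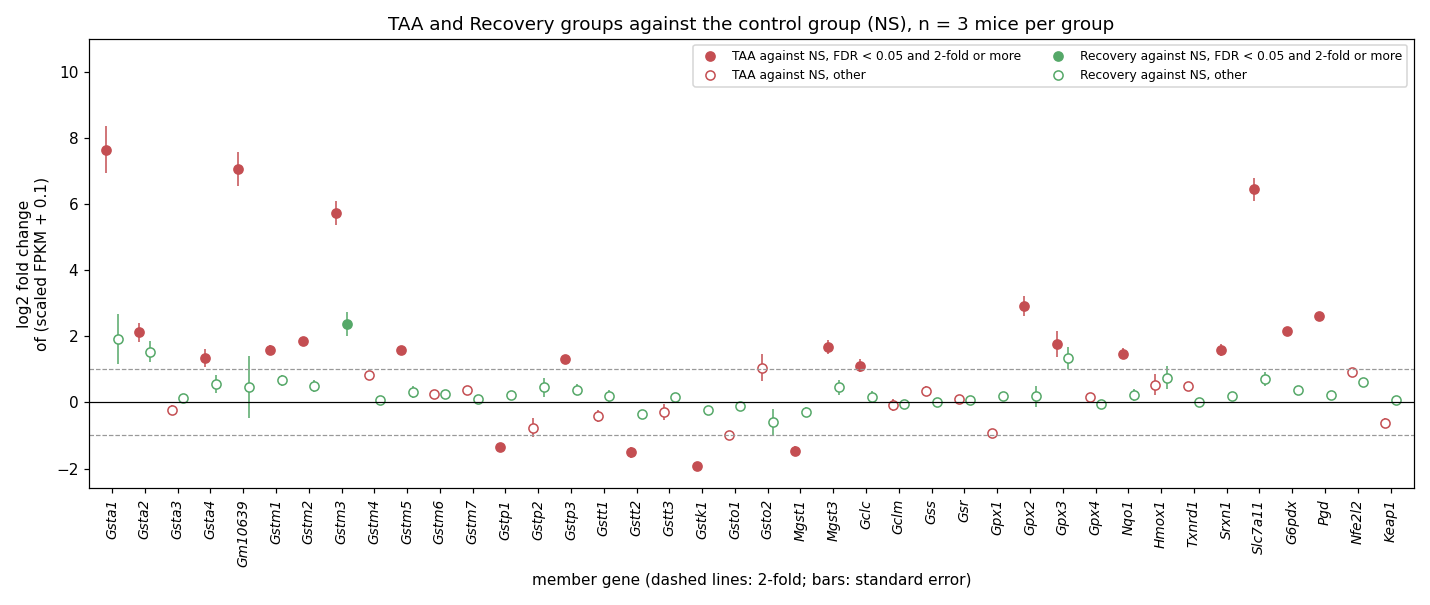
Log2 fold changes of (scaled FPKM + 0.1) with standard errors for the 40 tested members, in TAA livers (red) and the recovery group (green) against the control group, with filled points where the adjusted p was under 0.05 and the change at least 2-fold. Gsta1 reaches 7.64 in TAA livers, and Gstm3 at 2.38 is the one filled green point.

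With the scaling used here, neither regulator reached a 2-fold difference in any comparison. Nfe2l2 (ENSMUSG00000015839, chromosome 2, 75675513 to 75704641) had 19.1, 19.9 and 20.1 in control livers, 36.7, 40.5 and 35.8 in TAA livers and 34.3, 32.2 and 25.7 in recovery livers. All control values were below all others. The log2 fold change of 0.93 in TAA livers (SE 0.08, adjusted p = 9.02e-05) was just under 2-fold. Under the other scalings it passed 2-fold, at 1.57 with FPKM as deposited, 1.36 with quantile normalization and 1.76 with TPM. The recovery group differed from the control group by 0.63 (SE 0.11, adjusted p = 0.0472), and from the TAA group by -0.30 (SE 0.12, adjusted p = 0.0754). The latter was -0.86 with FPKM as deposited (adjusted p = 4.84e-04), -0.70 with quantile normalization (adjusted p = 0.00215) and -1.06 with TPM (adjusted p = 1.70e-04).

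Keap1 had 13.8, 14.3 and 12.4, then 9.61, 7.02 and 10.2, then 14.8, 13.3 and 14 in control, TAA and recovery livers in turn. The TAA values were the 3 lowest, with a log2 fold change of -0.61 (SE 0.15, adjusted p = 0.0111), which was 0.03 with FPKM as deposited and 0.21 with TPM. The recovery group differed from the TAA group by 0.66 (SE 0.15, adjusted p = 0.00667) and from the control group by 0.06 (SE 0.09, adjusted p = 0.728). The ratio of Nfe2l2 to Keap1 within a liver was 1.39 to 1.62 in control livers, 3.52 to 5.77 in TAA livers and 1.83 to 2.42 in recovery livers, with no overlap between the 3 groups. These are transcript levels, and NRF2 is controlled largely through the stability of its protein, which was not analysed here.

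**Figure D4:**
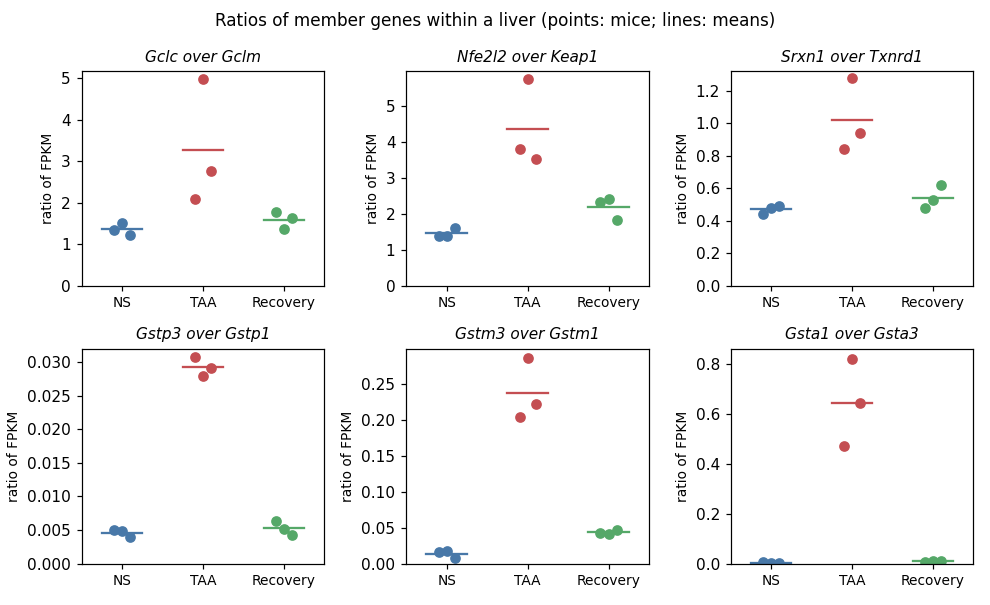
Ratios of the FPKM of paired members within each liver (points, 1 per mouse; lines, group means; linear axes from 0), computed on the deposited values, in which a factor per library cancels. The 3 TAA livers lie above the other 6 in every panel, with Gclc to Gclm ratios of 2.08 to 4.99.

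Livers of the TAA group also differed in markers of cell types. Summed scaled FPKM of 6 hepatocyte markers, all above 0 in all libraries, ranged from 36417 to 40817 in control livers, 21273 to 28129 in TAA livers and 44679 to 47729 in recovery livers, so that they moved in the direction of Gstp1, Mgst1, Gstk1, Gstt2 and Gpx1. Each of the 6 was lower in all TAA livers than in all controls. With FPKM as deposited the sums of the control and TAA groups overlapped (30846 to 34911 and 29286 to 36220), and without Alb, which led the list, they did not (7829 to 8933 and 5362 to 6244). The 5 bile duct cell markers, also above 0 throughout, summed to 15.7 to 20.9, 295 to 442 and 27.9 to 38.4, of which Spp1 held 274 to 415 in TAA livers. The 5 markers of stellate cells and myofibroblasts summed to 11.8 to 12.8, 152 to 218 and 10.9 to 18.1. The sums for 5 macrophage markers were 81.7 to 107, 153 to 217 and 109 to 145, and those for 5 lymphocyte markers 5.32 to 7.46, 9.94 to 12.6 and 4.21 to 9.19. These sums moved in the direction of the members that rose. All 5 bile duct and all 5 stellate cell markers were higher in every TAA liver than in every control, against 3 of 5 macrophage and 1 of 5 lymphocyte markers. The share of all genes without overlap between these groups is not given here. By limma's adjusted p alone, 54.5% of all tested genes differed, so such counts are a description only. Lyz2 led the macrophage list, and without it the control and TAA ranges were 34.5 to 63.2 and 56.7 to 64.2, with Clec4f at 13.8 to 36.2 and 20.2 to 23.9. Ptprc led the lymphocyte list, and without it they were 1.06 to 2.9 and 2.48 to 3.55. With FPKM as deposited, the control and TAA sums without these leading genes did not overlap. They were 28.5 to 55.5 and 74.9 to 83.3 for macrophage markers, and 0.875 to 2.48 and 3.27 to 4.57 for lymphocyte markers. The sums of 5 endothelial markers (45.2 to 82.7, 47.7 to 64.8 and 74.1 to 83.8) and of 5 red blood cell markers (483 to 772, 264 to 645 and 393 to 769) overlapped between the control and TAA groups. The part of cell types in the members' differences was not tested, and in whole liver fewer cells of a type and less RNA per cell cannot be told apart.

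Around these members, 80 further genes of glutathione and NRF2 biology were counted, of which 79 were tested. In TAA livers 20 rose and 10 fell, beside 17% and 8.02% of all tested genes, with a median log2 fold change of 0.19. This split was 33 and 1 with FPKM as deposited, 18 and 6 with quantile normalization and 40 and 0 with TPM. Over all 14094 tested genes these scalings gave 4382 and 421, 1534 and 1355, and 5687 and 343. In recovery livers against TAA livers, 8 of the 79 rose and 18 fell, beside 7.12% and 14.3% of all tested genes, with a median of -0.16. The other scalings gave 1 and 28, 3 and 16, and 0 and 36 in the same order. Over all tested genes they gave 409 and 3728, 1198 and 1379, and 315 and 5064. Against the control group none of the 79 passed both criteria in limma. Chac2, Mafg and Bach1 passed the adjusted p alone, each lower in recovery livers (-0.62, -0.74 and -0.82).

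Of the 17 genes of glutathione turnover and conjugate export, 6 rose and 4 fell in TAA livers. Abcc4, an export pump for organic anions, had the largest rise where 0.1 was added to each FPKM, from 1.3 to 2.46 in control livers to 9.71 to 16.5 in TAA livers (2.74, SE 0.29, adjusted p = 1.82e-04). Ggt1, which starts glutathione breakdown outside the cell, was listed at 0 in the 3 controls and had 0.378, 0.425 and 0.568 in TAA livers, so that its fitted value depends on the amount added. Oplah, the oxoprolinase that returns glutamate from glutathione breakdown, had the largest fall, from 71.5 to 81 in control livers to 20.3 to 26.3 in TAA livers (-1.69, SE 0.11, adjusted p = 2.57e-05), which was -0.87 with TPM. Of 16 tested genes for other glutathione-linked enzymes, 6 rose and 2 fell. Gpx7, a peroxidase of the endoplasmic reticulum, rose by 2.89 log2 units (SE 0.19, adjusted p = 2.36e-05), and Gstz1, the zeta transferase of tyrosine breakdown, fell by 1.46 log2 units (SE 0.10, adjusted p = 3.20e-05). The fall of Gstz1 was under 2-fold with the other scalings (-0.82 with FPKM as deposited, -0.65 with quantile normalization and -0.63 with TPM).

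The thioredoxin, peroxiredoxin, superoxide dismutase and catalase list had no gene that rose and 2 of 15 that fell in TAA livers. Its highest value was that of Sod3, at 0.72 (SE 0.23, adjusted p = 0.0339, under 2-fold), and the largest fall that of Cat, the catalase of peroxisomes, from 950 to 1078 in control livers to 392 to 448 in TAA livers (-1.26, SE 0.11, adjusted p = 8.42e-05). Under the other scalings Cat did not reach 2-fold and turned with quantile normalization, at -0.62, 0.28 and -0.43, and with FPKM as deposited 3 genes of this list rose and none fell, Sod3 among those that rose (1.34). Of 18 further NRF2-linked enzymes, 5 rose and none fell. Ptgr1, which reduces alkenals, rose by 4.15 log2 units (SE 0.21, adjusted p = 9.55e-06) and fell by 3.26 log2 units in recovery (SE 0.15, adjusted p = 6.46e-06). The lowest value in this list was that of Blvrb, a biliverdin reductase, at -0.72 (SE 0.13, adjusted p = 0.00284, under 2-fold), which was 0.11 with TPM.

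Among 13 partners and regulators of NRF2, 3 rose and 2 fell in TAA livers. Nfe2l3, a relative of NRF2, rose from 0.0197 to 0.104 in control livers to 0.417 to 0.67 in TAA livers (1.94, SE 0.28, adjusted p = 9.24e-04), a value of 0.96 with quantile normalization. Nfe2l1, another relative, fell from 36.7 to 42.2 in control livers to 9.49 to 17.4 in TAA livers (-1.49, SE 0.22, adjusted p = 9.21e-04), under 2-fold with FPKM as deposited (-0.86) and TPM (-0.67). Its recovery values were 40.6, 37 and 15.6, so that recovery mouse 3 lay within the TAA range.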

How the data were processed

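RNA of 9 livers was sequenced as paired-end reads. Per the labels and the study's methods, the authors mapped the reads to mm10 with HISAT2 2.2.1, counted them on genes with featureCounts 1.5.0-p3 and deposited FPKM with no further scaling. FPKM carry no exact depth: 54.9% to 64.1% of low values came out as whole fragments (tolerance 0.08, 16% by chance), so no count test or counting interval was used. Here each library's FPKM were scaled by its median-of-ratios factor, and log2(scaled FPKM + 0.1) of genes averaging 0.1 FPKM or more was compared with limma 3.58.1 (eBayes with trend) in R 4.3.3, within the 6 libraries of each comparison, with Benjamini-Hochberg adjustment over 14094 genes. Calls needed FDR < 0.05 and 2-fold. The steps were tested on simulated data with a small set of changed genes, drawn evenly from both directions. That test cannot show how the scaling behaves where many genes change and rises outnumber falls. The members and lists were chosen with earlier results of these data known. Values per library are given for members called in any comparison, the 2 regulators and the member with the highest control level of each class, and each list's largest rise and fall in the TAA group are named. Of the members, 4 (Gm10639, Gsto2, Gpx2 and Slc7a11) passed the filter although a group mean was under it. Promoters came from RefSeq, and transcript windows from GENCODE M21. Small RNA libraries were not analysed here. Alternatives were the pseudocount, filter, scaling, libraries in a fit, variance trend, test, replicate block and each mouse left out. The other scalings of the pathway genes outside the members, and the marker sums as deposited or without their leading gene, were added after seeing the data. Python 3.11.15, pandas 2.3.3 and numpy 2.4.6 were used.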

Additional observations from a re-analysis of the deposited data

How the results depend on the processing

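Adding 0.01 in place of 0.1 changed no call of the named members. With FPKM as deposited, quantile normalization and TPM, the members lower in the TAA group numbered 1, 2 and 1 in place of 4, and in recovery against TAA 1, 1 and 0 were higher in place of 6 and 20, 20 and 24 lower in place of 13. Over all tested genes, 4382, 1534 and 5687 were higher in the TAA group in place of 2389, and 421, 1355 and 343 lower in place of 1131. In recovery against TAA, 409, 1198 and 315 of all tested genes were higher in place of 1003, and 3728, 1379 and 5064 lower in place of 2014. In the TAA group the direction turned for Gsta3 (0.42, 1.04 and 0.61 under the 3 scalings in that order), Gstt1 (0.23, 0.20 and 0.42), Keap1 (0.03 with FPKM as deposited and 0.21 with TPM) and, with quantile normalization, Gstp1 (0.22) and Gpx1 (0.43). In recovery against TAA it turned for Gsta3 (-0.22, -0.84 and -0.42), with TPM for Gstt1 (-0.17) and Keap1 (-0.09), and with quantile normalization for Mgst1 (-0.02) and Gpx1 (-0.12). Of the 79 other pathway genes, 33, 18 and 40 were higher and 1, 6 and 0 lower in TAA livers in place of 20 and 10, and 1, 3 and 0 higher and 28, 16 and 36 lower in recovery against TAA in place of 8 and 18. Cat turned with quantile normalization (0.28) and Blvrb with TPM (0.11). The cause was not tested. With limma's treat, which tests against a 2-fold change, 11 members were called higher and 1 lower in TAA livers, and 2 higher and 7 lower in recovery against TAA. The calls of treat over all tested genes are not given here. In recovery against control, 0 members were higher with no filter, with no variance trend and with treat, and 2 with a mean FPKM of at least 1, FPKM as deposited, quantile normalization or a fit of all 9 libraries, in place of 1. With each mouse left out, this count was 0 to 2. Log2 values near 0 in recovery against control then changed sign, from -0.00 to 0.36 for Gstt1, from -0.04 to 0.06 for Txnrd1 and from -0.00 to 0.10 for Keap1. Mice with the same number did not deviate together (r of -0.07 to 0.12, against -0.11 to 0.13 for different numbers). The labels do not say what the numbers mean, and this check cannot exclude shared handling. No pairing was used in the main fit. With the replicate block, 0 members were higher in recovery against control in place of 1, and no other call changed. Over 67 pairs of a gene and a comparison, the settings other than leaving out a mouse gave 652 values with the same call, 49 that lost it, 16 that gained one and 17 that turned. FPKM near 0, as for Gsto2 and Gpx2, rest on few fragments.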
